A study of Mus musculus with 6 samples.

Results

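The cells described here are thick ascending limb (TAL) cells, picked out of 6 single-cell libraries of mouse kidney and chosen by their own transcripts. A barcode was taken as a TAL cell where it held at least 2 unique molecular identifiers (UMIs, the counted molecules) of Slc12a1, at least 3 UMIs of Slc12a1 and Umod together, and no UMI of Slc12a3, Aqp2, Ptprc, or Cd3e, genes of the distal convoluted tubule, the collecting duct, and leukocytes. The barcode also had to hold at least 500 UMIs and 250 genes, with at most 50% of its UMIs from mitochondrial genes. This rule found 1474 TAL cells among 49797 barcodes past the quality limits. Naive kidneys 1 and 2 held 216 and 170 of them, rejecting kidneys 1 and 2 held 257 and 185, and tolerized kidneys 1 and 2 held 296 and 350.

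The TAL is the stretch of the loop of Henle that takes up salt but not water, and so builds the gradient with which the kidney concentrates urine. Slc12a1 encodes NKCC2, the apical Na-K-2Cl cotransporter that loop diuretics block, and potassium that leaves again through Kcnj1 (ROMK) sets up the voltage that drives calcium and magnesium between the cells through claudins. TAL cells also secrete uromodulin (Umod), the main protein of normal urine, and make epidermal growth factor (Egf).

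Naive kidneys came from untransplanted, untreated C57BL/6 (B6) male mice of 10 to 12 weeks. Rejecting kidneys were kidneys of 6- to 7-week-old BALB/c mice (I-Ad), transplanted into B6 males (I-Ab) that had lost both of their own kidneys and had received no other treatment. Tolerized kidneys were the same kind of graft in recipients infused intravenously with 100000000 BALB/c splenocytes treated with ethylenecarbodiimide (ECDI, 150 mg/mL, 1 hour on ice), once 7 days before and once 1 day after transplantation. All 4 grafts were taken on day 15, every kidney gave 1 library, and there were 2 kidneys per group. The samples are labelled male, whereas the design text names BALB/c donors of either sex. Xist, expressed from the inactive X chromosome of females, was at 1.5 CPM or less in the TAL cells of each of the 6 kidneys. Strain, age, transplantation, and the list of genes counted (28692 genes in the naive matrices, 31053 in those of the grafts, 28208 shared) all differed between naive kidneys and grafts, and their parts in any difference from naive kidneys cannot be told apart. The question of the study is what separates rejecting from tolerized grafts, and those 2 groups share strain, donor age, day, and gene list.

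For each kidney the UMIs of its TAL cells were summed, which gave 1164636 and 665293 UMIs in the naive kidneys, 1342108 and 1593499 among rejecting kidneys, and 3581306 and 5371709 among tolerized kidneys. Tolerized kidneys were therefore measured most deeply and the second naive kidney least. The median TAL cell held 5542 and 3984 UMIs in the naive kidneys, 3212 and 5084 among rejecting kidneys, and 7700 and 12398.5 among tolerized kidneys. Mitochondrial genes took a median of 36.1% and 39.8% of the UMIs of naive TAL cells, 25.1% and 25.6% among rejecting kidneys, and 24.4% and 30.1% among tolerized kidneys, so that both naive kidneys were above every graft. No TAL barcode occurred in more than 1 library, although the 2 naive libraries shared 56 of the barcodes past the quality limits.

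Levels below are CPM, the UMIs of a gene scaled to a common total of UMIs per kidney. Changes are log2 fold changes with their standard errors from edgeR's quasi-likelihood test on these sums with TMM normalization, and adjusted p is its Benjamini-Hochberg value over 9372 genes, called below 0.05. The study names 2 experiments for its kidneys, but nothing in the labels ties a kidney or a replicate number to either, and with 2 kidneys per group the p-values measure the spread between these 6 libraries.

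The levels of the 2 genes that chose the cells are a description and not a result. Slc12a1 was at 6010 and 4687 CPM among naive kidneys, 3559 and 4347 among rejecting kidneys, and 4291 and 4189 among tolerized kidneys, with both naive kidneys above every graft. Umod was at 14062 and 14503, 13042 and 13176, and 12914 and 14306 in the same order. Just inside the threshold, 8 and 22 naive, 30 and 13 rejecting, and 24 and 48 tolerized TAL cells held exactly 2 Slc12a1 UMIs. Just outside it, 10 and 31 naive, 53 and 28 rejecting, and 37 and 140 tolerized barcodes held a single one with enough Umod. The 4 genes required at 0 removed 57 and 39 naive, 144 and 73 rejecting, and 119 and 344 tolerized barcodes.

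Markers that the rule did not use fitted the label. Cldn16, the claudin of calcium and magnesium reabsorption and a gene of the TAL, was at 112 and 87.2 CPM among naive, 119 and 166 among rejecting, and 118 and 86.6 among tolerized TAL cells. After thinning to 1500 UMIs per cell, Cldn16 was seen in at most 0.787% of distal convoluted tubule (DCT) cells and at most 0.165% of proximal tubule (PT) cells of any kidney. These comparison cells were picked in the same way, with at least 2 UMIs of Slc12a3 (2230 DCT cells) or of Slc34a1 (13291 PT cells). Besides Slc12a1, which chose the cells, 18 genes stood at 20 or more CPM in the TAL cells of every kidney and more than 5 times above the DCT and PT cells of the same kidney. They were Cldn16 and Cldn19, the transcription factors Irx1, Irx2, Foxq1, Foxc1, and Sim2, the dopamine- and cAMP-regulated phosphoprotein Ppp1r1b, and Tmem207, Pla1a, Egfl6, Scin, Rps6ka6, Pcsk6, Fam43a, Ephb2, Dusp9, and Defb42.

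RNA of other cells was present too. The 12 PT markers summed to 5646 and 9787 CPM among naive TAL cells, 4740 and 1673 among rejecting, and 8774 and 8702 among tolerized TAL cells, mostly from the androgen-regulated Kap, against 53985 to 88949 in PT cells. The 5 DCT markers summed to 30.9 and 57.1 CPM among naive, 18.6 and 3.77 among rejecting, and 12.8 and 30.7 among tolerized TAL cells, with Calb1 the most abundant except in tolerized kidney 1, where it was Pvalb, and Slc12a3 at 0 by the rule. The 7 collecting duct markers summed to 51.5 and 70.6, 22.4 and 18.8, and 25.7 and 49.9, with Aqp2 at 0 by the rule. All 12 macrophage markers were detected in each graft and summed to 1313 and 680 among rejecting and 536 and 296 among tolerized TAL cells, against 214 and 191 among naive TAL cells, where Aif1, Ccl8, and Ly86 were at 0. Apoe gave 41.1% to 96.4% of these sums. B cell markers stood at 3071 in tolerized kidney 2 and at 65.9 or less in the others, and 1 cell of that kidney held 76.1% of its UMIs of the immunoglobulin gene Igkc. The parts of these transcripts in the results below were not tested, except where the values are given.

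TAL cells made up 2.99% and 2.81% of all barcodes past the limits in the naive kidneys, 2.19% and 2.29% among rejecting kidneys, and 3.01% and 5.09% among tolerized kidneys. Both tolerized kidneys were above both rejecting kidneys, by 1.81 percentage points on average (exact 2-sided permutation test, p = 0.333, the smallest p that 2 kidneys against 2 can give), and by 0.775 points without tolerized kidney 2. Leukocytes enter that denominator. Among barcodes without a UMI of 7 leukocyte genes (Lyz2, C1qa, C1qb, Tyrobp, Trbc1, Trbc2, and Ccl5), a setting chosen after seeing the data, the 2 groups overlapped and differed by 0.569 points (exact permutation p = 0.667), and rejecting minus naive kidneys turned from -0.659 to 2.83 points. Among tubular cells, taken as TAL, DCT, and PT cells together, TAL cells made up 4.50% and 4.53% among naive kidneys, 11.1% and 15.3% among rejecting kidneys, and 9.51% and 19.4% among tolerized kidneys. On this base both groups of grafts lay above the naive kidneys, by 8.68 points for rejecting and 9.94 points for tolerized kidneys (exact permutation p = 0.333 for each). Rejecting and tolerized kidneys overlapped (difference 1.26 points, exact permutation p = 1), and the difference turned to -3.69 points without tolerized kidney 2. The share can rise through fewer PT cells as well as through more TAL cells, and yields of dissociation were not measured.

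**Figure D1:**
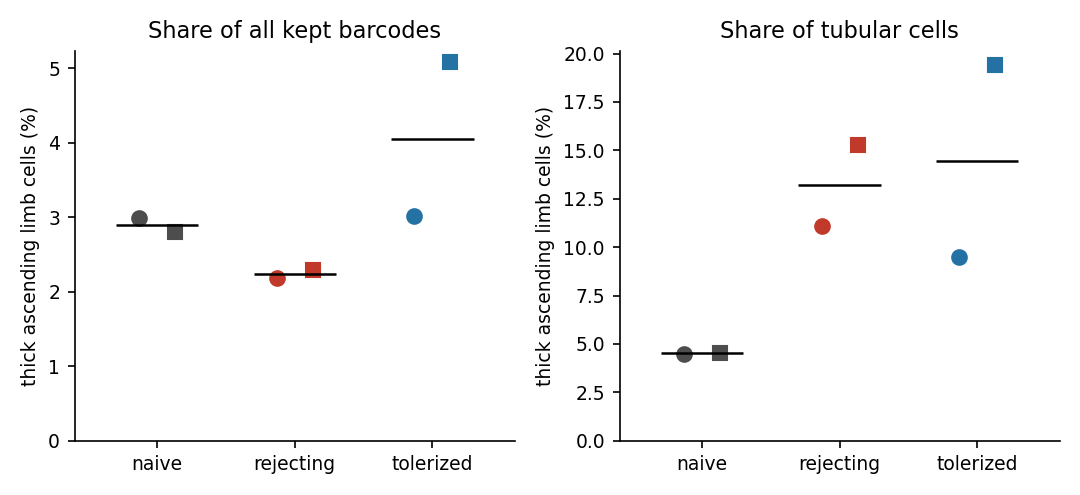
Share of TAL cells per kidney, in percent of all barcodes past the quality limits (left) and in percent of TAL, DCT, and PT cells together (right). Circles are replicate 1, squares replicate 2, and lines group means; tolerized kidney 2 is the highest in both panels, at 5.09% and 19.4%, and both naive kidneys are below every graft on the right.

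Single TAL cells were also read for their claudins. In the TAL, Cldn10 encodes a sodium-selective pore and Cldn16 forms a pore for divalent cations. In the mouse TAL these claudins are known to lie at different junctions. The counts are per gene and do not separate transcript forms. Thinning to 1500 UMIs, here and below, leaves out cells with fewer UMIs. It kept 216 and 164 naive, 191 and 163 rejecting, and 282 and 321 tolerized TAL cells. After thinning to 1500 UMIs, Cldn10 was seen in 48.6% and 40.9% of naive, 53.4% and 54.0% of rejecting, and 61.7% and 51.1% of tolerized TAL cells, against 29.8% to 41.2% of PT cells and 3.42% to 7.09% of DCT cells. Cldn16 was seen in 13.0% and 10.4% of naive, 18.3% and 27.6% of rejecting, and 20.2% and 9.35% of tolerized TAL cells (exact binomial interval 6.39% to 13.1% for the lowest and 20.9% to 35.1% for the highest, for counting error only). Before thinning these shares were 24.1% to 53.5% for Cldn16 and 58.0% to 75.3% for Cldn10. The share of cells with Cldn16 was lower among cells with a Cldn10 UMI than among cells without one in each of the 6 kidneys, which is a description and was not tested. The share with Cldn16 was 7.62% of Cldn10-positive and 18.0% of Cldn10-negative cells in naive kidney 1, and 8.96% and 11.3% in naive kidney 2. In the rejecting kidneys it was 7.84% and 30.3%, then 21.6% and 34.7%, and in the tolerized kidneys 16.7% and 25.9%, then 9.15% and 9.55%. The gap was therefore wide in rejecting kidney 1 and nearly absent in tolerized kidney 2.

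Between tolerized and rejecting kidneys, 75 genes were higher and 28 lower in tolerized TAL cells (0.8% and 0.299% of the 9372 genes tested). Rejecting TAL cells differed from naive ones in many more genes, with 818 higher and 742 lower (8.73% and 7.92%), and tolerized from naive TAL cells in 497 higher and 375 lower (5.3% and 4%). Both comparisons share the naive kidneys. The balance between tolerized and rejecting kidneys moved with the cells and kidneys taken, to 4 higher and 28 lower with at least 4 Slc12a1 UMIs per cell, 54 and 68 without rejecting kidney 2, and 8 and 0 without tolerized kidney 2. With at most 20% mitochondrial UMIs, which leaves 33 and 9 naive TAL cells, edgeR called 0, 123, and 48 genes in the 3 comparisons, where 572 genes passed an unadjusted p of 0.05 between tolerized and rejecting kidneys. Lists of genes are described below by how many of their members were called, beside the median change of all genes tested. That median was 0.00 for tolerized against rejecting, -0.00 for rejecting against naive, and 0.02 for tolerized against naive TAL cells. Members without a naive UMI passed the filter on low counts through the grafts alone. Where a list holds such members, its share higher than naive is a description.

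**Figure D2:**
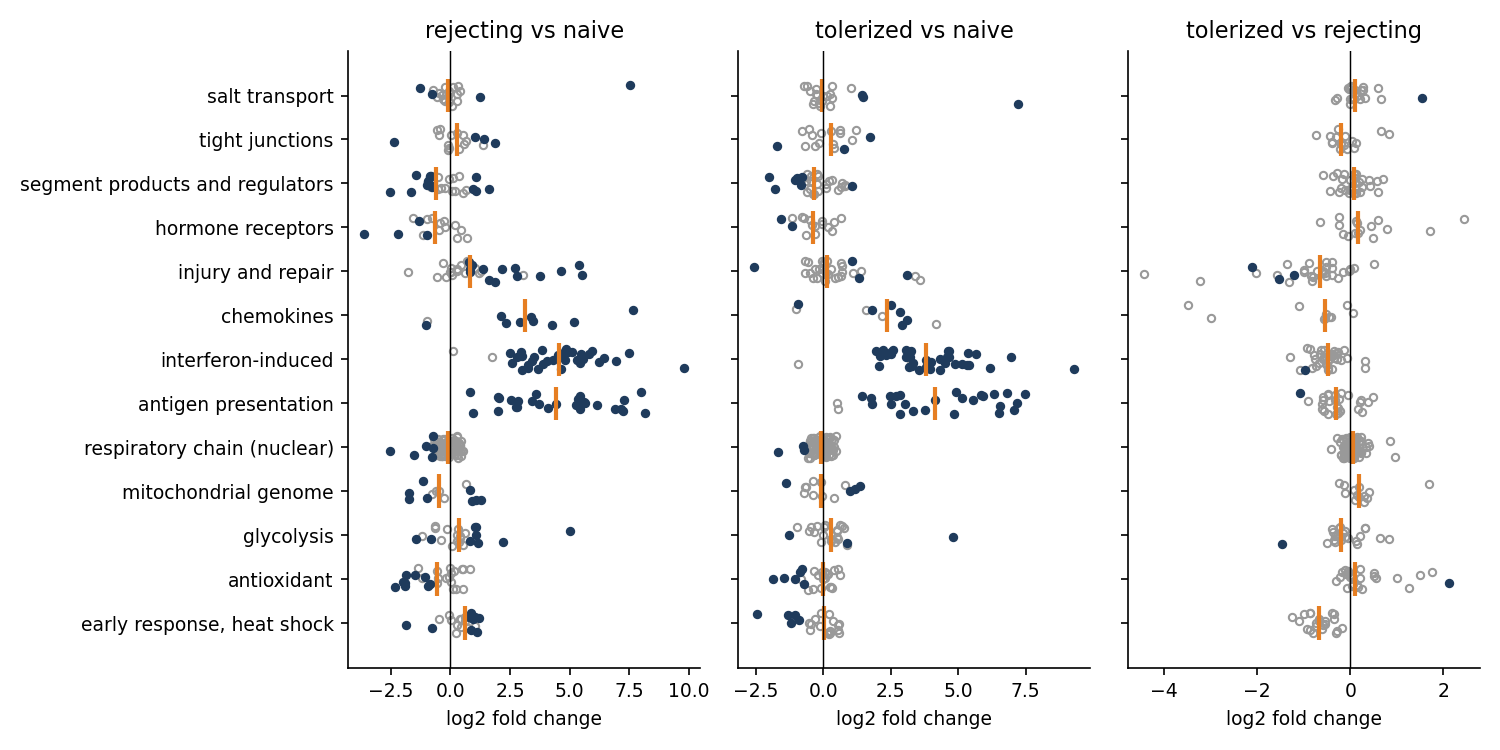
Log2 fold changes in TAL cells of the members of 13 gene lists (rows) in the 3 comparisons (panels). Filled points were called at an adjusted p below 0.05, orange marks are list medians, and members without a naive UMI are drawn at their lower bound; the interferon and antigen presentation lists lie far to the right in both comparisons with naive kidneys, and the interferon median is -0.48 between tolerized and rejecting kidneys.

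The genes of salt transport, the work of this segment, were called between rejecting and naive TAL cells about as often as all genes. Of 23 genes, 21 could be tested. In rejecting TAL cells, 2 were higher and 2 lower than in naive (9.52% each, against 8.73% and 7.92% of all genes). In tolerized TAL cells, 3 of the 21 were higher than in naive, where 5.3% of all genes were. Against rejecting TAL cells, 1 of the 21 was higher in tolerized, where 0.8% of all genes were. The medians were -0.10, -0.04, and 0.10 in this order. Kcnj1 was at 430 and 418 CPM among naive, 459 and 345 among rejecting, and 366 and 380 among tolerized TAL cells. It was not called in any comparison.

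Bsnd encodes barttin, a protein of the basolateral membrane. It was at 86.7 and 128 CPM among naive, 49.9 and 47.1 among rejecting, and 72.9 and 75.2 among tolerized TAL cells, lower in rejecting than in naive kidneys without overlap (log2 fold change -1.27 ± 0.24, adjusted p = 0.00541). Wnk1, a kinase upstream of NKCC2, was lower in rejecting TAL cells as well (-0.77 ± 0.21, adjusted p = 0.0311). Slc4a4, a basolateral sodium bicarbonate cotransporter better known from the proximal tubule, was the transport gene that separated the grafts. It stood at 33.5 and 58.6 among naive, 55.9 and 36.4 among rejecting, and 113 and 141 among tolerized TAL cells (tolerized against rejecting 1.53 ± 0.29, adjusted p = 0.0332), and the PT markers given above were also higher in both tolerized kidneys than in both rejecting kidneys.

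Slc9a3 encodes NHE3, the apical sodium-proton exchanger of the proximal tubule and the TAL. Naive TAL cells held a single UMI of it, 0.859 and 0 CPM, against 87.9 and 151 among rejecting and 92.7 and 94.8 among tolerized TAL cells. The ratio of the grafts to naive kidneys was 224 for rejecting (95% counting interval 39.9 to 8863) and 172 for tolerized kidneys (30.8 to 6797). It was near 0 among naive PT cells too, at 0.45 and 0.08, against 35.8 to 47.8 in PT cells of the grafts. A gene that PT cells depend on was thus nearly uncounted in both naive libraries, whose matrices list other genes than those of the grafts, and biology and counting cannot be told apart for it.

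Of 21 tight junction genes, 17 could be tested. In rejecting TAL cells, 3 were higher and 1 lower than in naive (17.6% and 5.88%, against 8.73% and 7.92% of all genes). In tolerized TAL cells, 2 of the 17 were higher and 1 lower than in naive, where 5.3% and 4% of all genes were. None was called between tolerized and rejecting TAL cells by edgeR or DESeq2, where 1 passed an unadjusted p of 0.05. The medians were 0.28, 0.29, and -0.20 in this order. Cldn8, a claudin of the more distal tubule, was at 145 and 120 CPM among naive, 17.1 and 39.5 among rejecting, and 39.9 and 46.5 among tolerized TAL cells, and every graft was below both naive kidneys (rejecting -2.37 ± 0.31, adjusted p = 0.000716; tolerized -1.71 ± 0.28, adjusted p = 0.00328). The summed levels of 5 DCT and 7 collecting duct markers, given above, were also lower in every graft than in both naive kidneys. Their part in the lower Cldn8 was not tested. Marveld2 (tricellulin), which seals the corners where 3 cells meet, was at 6.87 and 7.52 among naive, 32.8 and 25.7 among rejecting, and 27.6 and 23.6 among tolerized TAL cells (1.88 ± 0.35, adjusted p = 0.00579, and 1.74 ± 0.34, adjusted p = 0.00893, against naive). Cldn10 and Cldn19, which pairs with Cldn16, were not called, and Cldn14, which blocks the Cldn16 pore, was at 4.65 CPM or less in all kidneys and was not tested. The adherens junction gene Cdh1 was lower in both groups of grafts (-1.17 ± 0.20, adjusted p = 0.00355, and -1.05 ± 0.20, adjusted p = 0.00725).

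Genes of TAL identity and secretion were more often lower than higher in the grafts. Of 30 tested, 4 were higher and 12 lower in rejecting than in naive TAL cells, and 1 was higher and 6 lower in tolerized than in naive TAL cells (medians -0.61 and -0.36). The shares were 13.3% and 40% for rejecting, against 8.73% and 7.92% of all genes, and 3.33% and 20% for tolerized kidneys, against 5.3% and 4%. None was called between tolerized and rejecting kidneys by edgeR or DESeq2, with 2 at an unadjusted p under 0.05 (median 0.07). Egf was at 9849 and 8109 CPM among naive, 1545 and 1957 among rejecting, and 1767 and 3625 among tolerized TAL cells. All 4 grafts were below both naive kidneys, with tolerized kidney 2 the least so (rejecting -2.51 ± 0.34, adjusted p = 0.000961; tolerized -1.81 ± 0.34, adjusted p = 0.00725). The share of TAL cells with an Egf UMI, thinned to 1500 UMIs, was 92.6% and 88.4% among naive, 65.4% and 62.0% among rejecting, and 58.2% and 77.3% among tolerized kidneys, against 0.542% to 5.04% of PT cells at the same depth. Egf was lower in the grafts in DCT cells as well, at 2342 and 2225 CPM among naive, 496 and 983 among rejecting, and 738 and 1112 among tolerized kidneys.

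Other members fell with it in both groups of grafts. Ppp1r1a, an inhibitor of protein phosphatase 1, was at 1612 and 1580 CPM among naive TAL cells and between 818 and 1033 in the grafts (rejecting -0.97 ± 0.19, adjusted p = 0.00772; tolerized -0.85 ± 0.19, adjusted p = 0.0199). Sostdc1, a secreted BMP and Wnt antagonist, was at 1101 and 973 among naive TAL cells and between 541 and 755 in the grafts (-0.85 ± 0.20, adjusted p = 0.0177, and -0.78 ± 0.20, adjusted p = 0.0358). Ppp1r1b and the transcription factor Irx3 were also lower in both, calls that turned direction on the cells with at most 20% mitochondrial UMIs, for Ppp1r1b in the rejecting kidneys and for Irx3 in both. In rejecting TAL cells, Irx1, Irx2, and Prdm16, all transcriptional regulators, were lower too. Wfdc2, a secreted protease inhibitor also known as HE4, moved the other way. It was at 1182 and 1025 among naive, 3979 and 3605 among rejecting, and 2935 and 2000 among tolerized TAL cells (1.63 ± 0.22, adjusted p = 0.00094, and 1.05 ± 0.22, adjusted p = 0.0137). Epcam, an adhesion molecule of epithelia, and the creatine kinase Ckb were higher in rejecting TAL cells (1.08 ± 0.21, adjusted p = 0.0073, and 0.93 ± 0.23, adjusted p = 0.0201).

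Of 16 genes of hormone response tested, 4 were lower in rejecting and 2 in tolerized than in naive TAL cells (25% and 12.5%, against 7.92% and 4% of all genes), none was higher, and none was called between the grafts by edgeR or DESeq2, with 1 at an unadjusted p under 0.05 (medians -0.62, -0.38, and 0.16). Pth1r, the receptor through which parathyroid hormone acts on calcium uptake, was at 387 and 501 CPM among naive, 197 and 201 among rejecting, and 176 and 239 among tolerized TAL cells. Both groups of grafts lay below the naive kidneys (-1.30 ± 0.24, adjusted p = 0.0051, and -1.18 ± 0.23, adjusted p = 0.0106). In DCT cells Pth1r was at 178 and 193 among naive, 251 and 219 among rejecting, and 209 and 219 among tolerized kidneys, and in PT cells it was at 280 and 301, 439 and 366, and 429 and 386. The change from naive to rejecting kidneys differed between TAL and DCT cells by -1.35 ± 0.17 (adjusted p = 0.000489 for the interaction of cell type and group in edgeR) and between TAL and PT cells by -1.27 ± 0.22 (adjusted p = 0.00626), so the lower Pth1r of the grafts was particular to TAL cells among these 3 types. Of all genes, 0.762% of 10505 were more negative in TAL than in DCT cells and 1.8% of 12605 more negative than in PT cells. For tolerized against naive kidneys the differences were -1.18 ± 0.16 (adjusted p = 0.000402) and -1.41 ± 0.22 (adjusted p = 0.0136), with 0.495% and 0.682% of all genes more negative.

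Sgk1, the kinase of aldosterone and stress signaling, was at 27.5 and 18 CPM among naive, 2.98 and 8.16 among rejecting, and 7.82 and 8.75 among tolerized TAL cells (-2.17 ± 0.47, adjusted p = 0.0109, and -1.58 ± 0.39, adjusted p = 0.0288). Nos1, which marks the macula densa cells at the end of the TAL, was at 35.2 and 15 among naive, 3.73 and 1.26 among rejecting, and 6.98 and 17.3 among tolerized TAL cells (rejecting -3.60 ± 0.75, adjusted p = 0.00934). Tolerized kidney 2 overlapped the naive kidneys for it. Gcgr, the glucagon receptor, was lower in rejecting TAL cells (-0.96 ± 0.25, adjusted p = 0.0271). The calcium-sensing receptor Casr was at 45.5 and 36.1 among naive and 47.7 to 64.1 in the grafts and was not called. Ptger3, a prostaglandin E2 receptor, was at 210 and 144 among naive, 330 and 309 among rejecting, and 362 and 240 among tolerized TAL cells and was not called, whereas in DCT cells it was at 6.63 and 5.53, 49.2 and 55.8, and 81.8 and 28.5. Its change from naive to rejecting kidneys differed between the 2 cell types by -2.15 ± 0.34 (adjusted p = 0.0024).

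**Figure D3:**
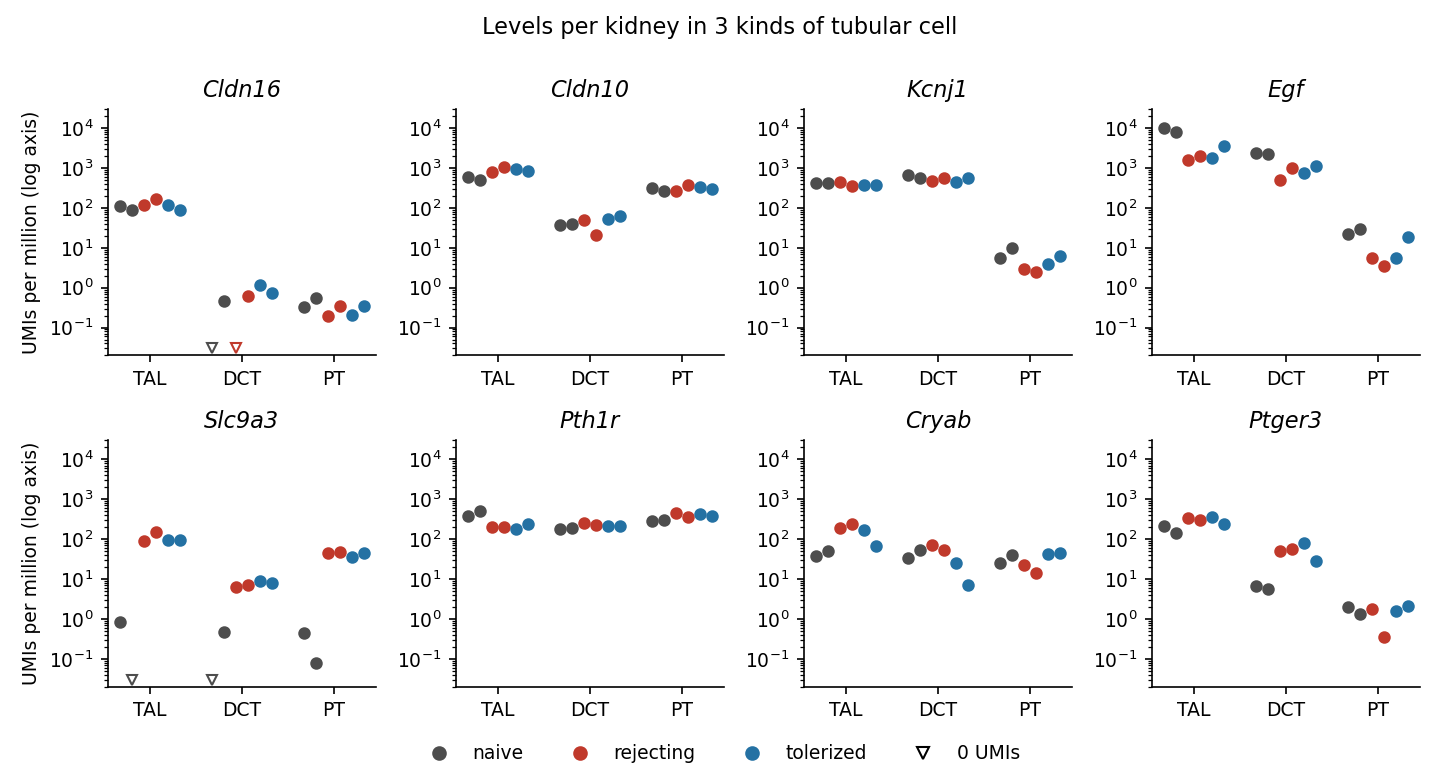
CPM (log axis) of 8 genes in TAL, DCT, and PT cells of each kidney. Each point is 1 kidney, replicate 1 left of replicate 2 within a color, and open triangles mark 0 UMIs. Pth1r is lower in the grafts in TAL cells only, Egf in all 3 types, and Slc9a3 is near 0 among naive kidneys in each type. Few PT cells held an Egf UMI, and the part of free RNA in their Egf level was not tested.

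Nearly all interferon-induced genes tested were higher in the grafts than in naive kidneys. Interferon gamma is known to act on its target genes through GAS elements and type I interferon through ISRE elements, which IRF1 also binds. Of 40 genes on the list, 38 could be tested, and 35 were higher in rejecting and 36 in tolerized than in naive TAL cells (92.1% and 94.7%, against 8.73% and 5.3% of all genes), with none lower. The median change was 4.80 and 4.32, or 4.53 and 3.82 with the 11 genes without a naive UMI at their lower bound. Irf8 and Socs3 were called in neither comparison and Rsad2 among tolerized kidneys only, a pattern of 3 genes picked out after their values were seen. With at most 20% mitochondrial UMIs, 19 and 7 of the 38 were called, where 84 and 37 of all 7526 genes tested were higher.

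Irf1, a transcription factor of the interferon response, was at 5.15 and 4.51 CPM among naive, 110 and 146 among rejecting, and 77.6 and 86 among tolerized TAL cells (4.54 ± 0.33, adjusted p = 1.08e-05, and 3.96 ± 0.33, adjusted p = 3.57e-05). Each graft was more than an order of magnitude above both naive kidneys for it. Igtp, a GTPase of the IRG family that acts on vacuoles of intracellular pathogens, was at 1.72 and 4.51 among naive, 559 and 563 among rejecting, and 434 and 320 among tolerized TAL cells (7.49 ± 0.36, adjusted p = 1.39e-06, and 6.97 ± 0.36, adjusted p = 2.22e-06). Iigp1 of the same family was at 0 and 0, 1155 and 1701, and 1197 and 917, at least 885-fold higher in rejecting and at least 628-fold higher in tolerized kidneys, with the naive group set to a floor of 3 counts. Gbp2, a guanylate-binding protein, was at 0 and 0, 185 and 214, and 136 and 108, at least 122-fold and at least 72.6-fold higher. Members of the IRG and GBP families are near copies of each other, and the counting may have split reads among them.

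Transcripts of these genes and of B2m were higher in the grafts, and promoter sequences of Gbp2, Igtp, Irf1, and B2m are shown as examples that hold a match. They are the 250 bases before the RefSeq start (GRCm38.p6), 5′ to 3′ on the strand of the gene, and capitals mark a GAS match (TTCNNNGAA) or an ISRE match (GAAA, any 2 bases, and GAAA again, on either strand). Gbp2 (chr3:142620413-142620662, plus strand) holds an ISRE match, Igtp (chr11:58199306-58199555, plus strand) a GAS match and an ISRE match, Irf1 (chr11:53769764-53770013, plus strand) a GAS match, and B2m (chr2:122147437-122147686, plus strand) an ISRE match.
Gbp2: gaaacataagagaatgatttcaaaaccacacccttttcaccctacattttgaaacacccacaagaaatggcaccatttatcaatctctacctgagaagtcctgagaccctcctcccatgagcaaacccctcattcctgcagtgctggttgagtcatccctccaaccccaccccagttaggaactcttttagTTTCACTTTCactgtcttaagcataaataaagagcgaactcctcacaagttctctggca
Igtp: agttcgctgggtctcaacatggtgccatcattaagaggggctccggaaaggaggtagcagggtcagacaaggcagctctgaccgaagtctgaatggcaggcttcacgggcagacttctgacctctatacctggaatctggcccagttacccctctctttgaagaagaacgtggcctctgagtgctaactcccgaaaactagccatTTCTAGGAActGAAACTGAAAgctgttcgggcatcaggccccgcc
Irf1: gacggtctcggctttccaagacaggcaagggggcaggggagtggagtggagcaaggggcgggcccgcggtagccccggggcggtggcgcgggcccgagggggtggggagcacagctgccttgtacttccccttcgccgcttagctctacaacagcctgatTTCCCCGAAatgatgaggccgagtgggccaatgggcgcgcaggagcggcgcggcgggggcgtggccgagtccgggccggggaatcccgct
B2m: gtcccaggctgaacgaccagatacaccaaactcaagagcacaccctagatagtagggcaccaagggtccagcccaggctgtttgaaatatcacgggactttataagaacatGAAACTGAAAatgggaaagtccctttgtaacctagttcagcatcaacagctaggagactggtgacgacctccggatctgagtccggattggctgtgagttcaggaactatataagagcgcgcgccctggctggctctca

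Such a match, on either strand, was found in the promoters of 22 of the 29 genes of the interferon list that had a RefSeq promoter (75.9%; GAS in 13 and ISRE in 16). Of all 27025 genes with a promoter in the table, 11.1% held one (GAS 8.13%, ISRE 3.46%), and of the genes tested in TAL cells 9.66% did. The antigen presentation list held a match in 4 of 22 genes, the identity list in 3 of 22, the salt transport list in 1 of 15, and the respiratory chain list in 6 of 64. Among promoters looked at but not shown, those of Gbp5, Irgm1, and Psmb8 held a match. Those of Tap1 and Psmb9, and of H2-K1 at either start, held none. Irf1 and Gbp3 each had another RefSeq start without a match. A match is a string of letters and not a shown binding site.

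**Figure D4:**
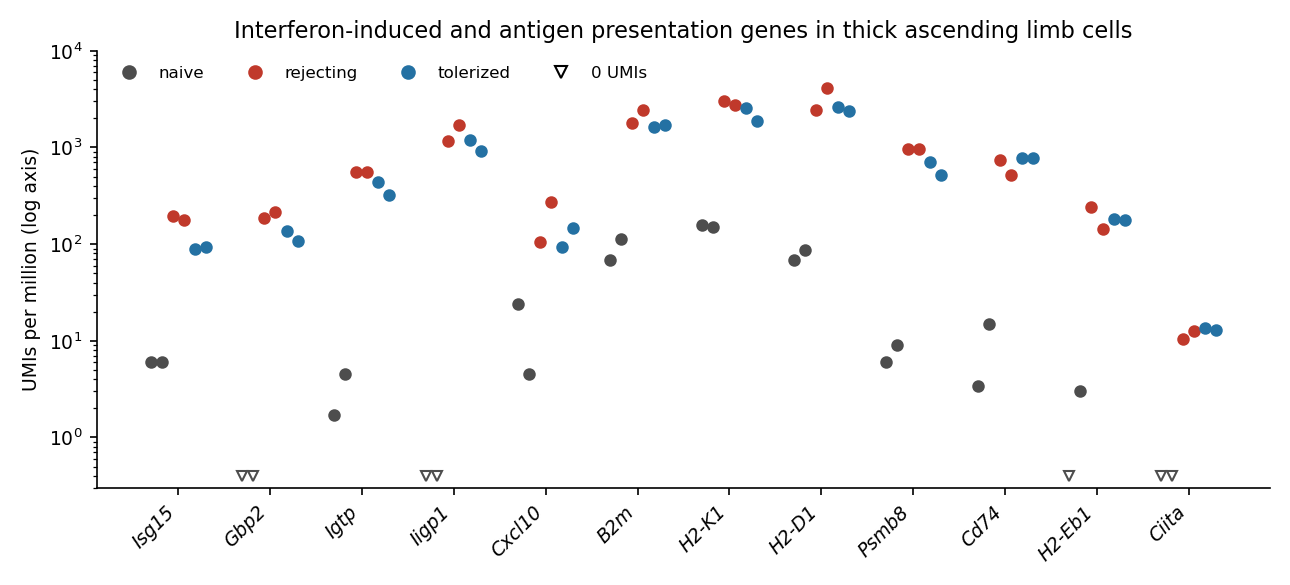
CPM (log axis) of 12 interferon-induced and antigen presentation genes in TAL cells of each kidney, with open triangles for 0 UMIs. All 4 grafts lie above both naive kidneys for each gene. Isg15, lower in both tolerized than in both rejecting kidneys, was the only one of these genes called between the grafts.

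Interferon-induced transcripts were seen in most TAL cells of the grafts and not in a few only. The part of free RNA in these shares was not tested. After thinning to 1500 UMIs, 87.4% and 88.3% of rejecting and 71.6% and 60.4% of tolerized TAL cells held at least 3 UMIs of the list, against 2.78% and 3.66% of naive TAL cells, and the median cell held 7 and 7, 5 and 4, and 0 and 0 UMIs. DCT cells were alike, with 81.3% and 94.5%, 69.7% and 61.0%, and 2.76% and 2.19%. Both rejecting kidneys stood above both tolerized kidneys in TAL cells, and 36 of the 38 genes had a lower estimate in tolerized than in rejecting TAL cells (median -0.48), but only Isg15 was called. Isg15, a ubiquitin-like modifier, was at 6.01 and 6.01 among naive, 193 and 179 among rejecting, and 88.2 and 93.5 among tolerized TAL cells (tolerized against rejecting -0.98 ± 0.18, adjusted p = 0.0296). The groups of grafts did not overlap for 24 of the 38 genes, against 40.5% of all genes tested.

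Genes of antigen presentation rose in the same way. All 27 tested were higher in rejecting and 25 in tolerized than in naive TAL cells (100% and 92.6%, against 8.73% and 5.3% of all genes, medians 5.35 and 4.92, or 4.41 and 4.13 with 2 genes at their lower bound), where Calr and Pdia3, chaperones of peptide loading, were those not called in tolerized kidneys. Of MHC class I, B2m was at 68.7 and 113 CPM among naive, 1796 and 2432 among rejecting, and 1608 and 1715 among tolerized TAL cells (4.41 ± 0.29, adjusted p = 6.69e-06, and 4.13 ± 0.29, adjusted p = 9.91e-06). Psmb8, a subunit of the immunoproteasome, was at 6.01 and 9.02, 965 and 960, and 708 and 524 (6.91 ± 0.30, adjusted p = 1.39e-06, and 6.31 ± 0.30, adjusted p = 2.22e-06). Nlrc5, the activator of class I genes, was at 0 and 0, 16.4 and 22.6, and 19.5 and 14. H2-K1 and H2-D1 rose too (4.09 ± 0.23 and 5.24 ± 0.30 among rejecting kidneys, adjusted p = 2.6e-06 for both), although the class I genes are near copies of each other and differ in sequence between B6 and BALB/c, and the reads were aligned to the B6-based mm10 genome. H2-Q4 was the member called between the grafts, at 156 and 221 among rejecting and 93.5 and 77.8 among tolerized TAL cells (-1.09 ± 0.21, adjusted p = 0.0351).

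Of MHC class II, Cd74 (the invariant chain) was at 3.43 and 15 CPM among naive, 734 and 516 among rejecting, and 786 and 781 among tolerized TAL cells (6.15 ± 0.44, adjusted p = 1.11e-05, and 6.52 ± 0.44, adjusted p = 8.89e-06). Ciita, the class II transactivator, was at 0 and 0, 10.4 and 12.6, and 13.7 and 12.8, at least 7.06-fold and at least 8.04-fold higher. Both tolerized kidneys lay above both rejecting kidneys for each gene, and neither was called between them. A class II UMI was seen in 2.31% and 2.44% of naive, 72.3% and 44.8% of rejecting, and 51.4% and 44.2% of tolerized TAL cells thinned to 1500 UMIs. Of PT cells, 100% and 99.6% held one in the rejecting kidneys and 99.5% and 97.8% among tolerized kidneys, with a median of 10 to 16 UMIs where the median TAL cell held 0 or 1. Macrophage markers other than Apoe were seen in 64.9% and 28.8% of rejecting and 17.0% and 12.1% of tolerized TAL cells, and in 64.4% and 25.6%, and 20.3% and 9.92%, of PT cells. The shares were alike in both cell types. The level of Cd74 in TAL cells was 14.9% and 9.08% of its level in PT cells of the rejecting kidneys and 13.6% and 19.4% among tolerized kidneys, and for H2-Eb1 it was between 9.86% and 20.8% of the PT level in the 4 grafts. The PT markers stood at 8.31% and 2.58%, and 9.86% and 15.4%, of their PT level in the same TAL cells. Psmb8 was at 97.5% to 105% of its PT level in the 4 grafts and Nlrc5 at 61.6% to 143%. The part of free RNA from PT cells and leukocytes in the class II values was not tested. A further setting left out every cell with a UMI of the 7 leukocyte genes named above, which leaves 8 and 69 rejecting TAL cells. There, 23 of 26 antigen presentation genes and 34 of 35 interferon genes were higher in rejecting than in naive kidneys. Of all 7950 genes tested at this setting, 410 were higher. Of 3 macrophage markers tested at it, 2 were higher as well.

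Most of these genes were higher in DCT and PT cells of rejecting kidneys too. The interferon list was higher in 37 of 38 genes in DCT and 35 of 39 in PT cells of rejecting kidneys (10.1% and 17.5% of all genes), and the antigen presentation list in 27 of 27 in both. The change differed between TAL and DCT cells for 3 interferon genes (Iigp1, Igtp, and Ifi27, all more positive in TAL cells) and no antigen presentation gene, against a background of 0.781%. Iigp1 had no naive UMI in TAL cells, so its differences from DCT and PT cells are a description. The change was more positive in TAL than in PT cells for Iigp1, Bst2, and Ifitm3 and for 4 antigen presentation genes, against a background of 6.91%. Among the latter, B2m differed by 1.41 ± 0.17 (adjusted p = 0.0026) and H2-D1 by 0.94 ± 0.16 (adjusted p = 0.0055), starting from PT levels that were higher in naive kidneys, 177 and 353 CPM for B2m.

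Chemokines and their partners were measured at low levels. Cxcl9, Icam1, and Ccl8 had no naive UMI and passed the filter on low counts through the grafts alone. The shares that follow are therefore a description. Of 19 genes 10 could be tested, with 8 higher and 1 lower in rejecting (80% and 10%, against 8.73% and 7.92% of all genes) and 5 higher and 1 lower in tolerized than in naive TAL cells (50% and 10%, against 5.3% and 4%), and none called between the grafts by edgeR or DESeq2, where 3 passed an unadjusted p of 0.05 (fitted medians 3.14, 2.66, and -0.54). The tolerized median is lower with Ccl8 at its lower bound of 2.17 in place of its fitted 7.11. Cxcl10, a ligand of CXCR3 on effector T cells, was at 24 and 4.51 CPM among naive, 104 and 270 among rejecting, and 93 and 148 among tolerized TAL cells (3.37 ± 0.57, adjusted p = 0.00337, and 2.82 ± 0.57, adjusted p = 0.0116). Cxcl9, another CXCR3 ligand, was at 0 and 0, 47.7 and 18.2, and 20.9 and 9.31. Cxcl16, whose receptor is CXCR6, was at 10.3 and 15, 116 and 87.2, and 85.4 and 63.7 (2.91 ± 0.31, adjusted p = 0.000182, and 2.51 ± 0.31, adjusted p = 0.00054). Cx3cl1 (fractalkine) was the member that fell, from 47.2 and 42.1 among naive to between 19.4 and 29.5 in the grafts. Ccl5 and Ccl8, genes of T cells and macrophages, were higher in rejecting TAL cells, with 253 and 109 CPM in rejecting kidney 1 and 16.9 and 16.9 in rejecting kidney 2. The same kidney had the highest sums of T cell markers (478 CPM, against 4.51 to 50.2 in the others) and macrophage markers. Of 14 complement genes, 5 passed the filter on low counts, which low genes can pass through the grafts alone. As a description, 3 were higher in rejecting and 2 in tolerized than in naive TAL cells (60% and 40%, against 8.73% and 5.3% of all genes). The fitted medians were 4.42 and 5.86, with no member set to a lower bound, and their sizes are not compared.

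Of 42 injury genes, 32 could be tested, and 14 were higher and none lower in rejecting than in naive TAL cells (43.8%, against 8.73% of all genes), 3 were higher and 1 lower in tolerized than in naive (9.38% and 3.12%, against 5.3% and 4%), and 3 were lower in tolerized than in rejecting TAL cells (9.38%, against 0.299%; medians 0.83, 0.11, and -0.65). Of the 32 estimates, 29 were lower in tolerized than in rejecting kidneys. Atf3, a transcription factor of acute stress, was at 95.3 and 87.2 CPM among naive, 343 and 407 among rejecting, and 155 and 157 among tolerized TAL cells. The 3 groups did not overlap (tolerized against rejecting -1.21 ± 0.18, adjusted p = 0.0175; rejecting against naive 1.88 ± 0.20, adjusted p = 0.000182). Gdf15, a stress-induced cytokine, was at 6.87 and 0, 95.4 and 144, and 44.1 and 35.9 (tolerized against rejecting -1.53 ± 0.29, adjusted p = 0.0332; against naive 4.64 ± 0.48 and 3.10 ± 0.52, adjusted p = 0.000169 and 0.00392). Tmsb4x, an actin-binding peptide that leukocytes express strongly, was the last of the 3, at 105 and 137, 1343 and 491, and 221 and 191 (-2.12 ± 0.39, adjusted p = 0.0307). Macrophage and T cell markers moved with it, and their part in it was not tested.

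Cryab, a small heat shock protein, was at 36.9 and 51.1 CPM among naive, 186 and 238 among rejecting, and 164 and 68.5 among tolerized TAL cells (2.15 ± 0.37, adjusted p = 0.00344, and 1.31 ± 0.36, adjusted p = 0.0476). In DCT cells it was at 33.2 and 52.6, 70.4 and 52.7, and 25.1 and 7.12, so that tolerized kidneys lay below naive kidneys there, and the change to rejecting kidneys differed between TAL and DCT cells by 1.84 ± 0.27 (adjusted p = 0.0011). Krt8, a keratin of simple epithelia, was at 53.2 and 51.1 among naive, 204 and 156 among rejecting, and 146 and 87.5 among tolerized TAL cells (1.64 ± 0.27, adjusted p = 0.00269, and 1.04 ± 0.26, adjusted p = 0.0331). Havcr1 (KIM-1), the classical injury gene of the proximal tubule, was at 2.24 or less in all kidneys and was not tested. The transcripts of S100a6, Vim, and Lcn2 were spread unevenly over the cells of rejecting kidneys. S100a6 was at 8.59 and 25.6 among naive and 1481 and 64.6 among rejecting TAL cells, and 1 cell held 51.2% of its UMIs in rejecting kidney 1. Vim was at 44 and 398 among rejecting TAL cells, and 1 cell held 97.2% of its UMIs in rejecting kidney 2. Lcn2 (NGAL), a secreted injury marker of the distal nephron, was at 6.01 and 10.5 among naive, 253 and 482 among rejecting, and 176 and 8 among tolerized TAL cells (rejecting 5.40 ± 1.23, adjusted p = 0.0145), and a single cell held 40.3% and 17.3% of it in the rejecting kidneys.

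Stress response genes were in part higher in rejecting kidneys. Of 22 tested, 8 were higher and 2 lower in rejecting than in naive TAL cells (36.4% and 9.09%, against 8.73% and 7.92% of all genes). In tolerized TAL cells, none was higher and 5 were lower than in naive (22.7%, against 4%). None was called between the grafts by edgeR, where 13 were lower for tolerized kidneys with an unadjusted p under 0.05. Of all 9372 genes, 931 passed that threshold in either direction. DESeq2 called 3 of the list. The medians were 0.62, 0.03, and -0.67 in this order. Hspa5 (BiP), the main chaperone of the endoplasmic reticulum, was at 286 and 227 CPM among naive, 586 and 520 among rejecting, and 330 and 313 among tolerized TAL cells (rejecting 0.96 ± 0.20, adjusted p = 0.00973). Ddit3 (CHOP), a factor of the unfolded protein response, rose by 1.21 ± 0.27 (adjusted p = 0.0135). Nr4a1, an immediate early gene, was lower in all 4 grafts (-1.87 ± 0.49, adjusted p = 0.0252, and -2.45 ± 0.45, adjusted p = 0.00644).

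Of 26 antioxidant and metal-binding genes tested, 9 were lower in rejecting and 6 in tolerized than in naive TAL cells (34.6% and 23.1%, against 7.92% and 4% of all genes), none was higher, and the others were not called (medians -0.54 and -0.04). Gpx6, a glutathione peroxidase, was at 254 and 234 CPM among naive, 72.3 and 73.4 among rejecting, and 73.4 and 69.8 among tolerized TAL cells, with all 4 grafts within a few CPM of each other (-1.90 ± 0.18, adjusted p = 0.000103, and -1.87 ± 0.18, adjusted p = 8.64e-05). In DCT cells it was at 103 and 90.4, 80.3 and 121, and 94.8 and 102, and the change to rejecting kidneys differed by -1.67 ± 0.21 (adjusted p = 0.00049). Mt1 and Mt2, the metallothioneins, and Cat, the catalase, were lower in both groups of grafts, although Cat turned to 0.36 for tolerized against naive kidneys on the cells with at most 20% mitochondrial UMIs, with Mt2 at 601 and 591 among naive and between 193 and 286 in the grafts. Gpx3, the secreted glutathione peroxidase made mainly by the proximal tubule, was the member that separated the grafts, at 1063 and 2510 among naive, 582 and 420 among rejecting, and 2214 and 1973 among tolerized TAL cells (tolerized against rejecting 2.11 ± 0.36, adjusted p = 0.0239). PT markers moved the same way, with 5 of 12 higher in tolerized than in rejecting TAL cells (median 1.85), and their part in it was not tested.

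Respiratory chain genes were lower less often in TAL cells than in the other tubular cells. Of 77 nuclear genes of complexes I to V and cytochrome c, 6 were lower in rejecting than in naive TAL cells and none was higher (median -0.09), a share of 7.79% beside 7.92% of all genes. In DCT cells 34 were lower (median -0.57), where 8.73% of all genes were, and in PT cells 57 were lower (median -0.81), where 15.3% of all genes were. The change was more positive in TAL than in PT cells for 68 of the 77 genes, with a median difference of 0.889 against 0.132 over all genes and a background of 6.91%. Against DCT cells it was more positive for 23 of 77 (median difference 0.488 against 0.0244, background 0.781%). For tolerized against naive kidneys, 30 of 77 were more positive in TAL than in PT cells (background 2.09%) and none passed the test against DCT cells (background 0.267%). On the cells with at most 20% mitochondrial UMIs, 0 of the 77 passed the test against PT cells in rejecting kidneys, with 63 more positive at an unadjusted p under 0.05 in edgeR and a median difference of 1.07. Cox7c, a subunit of cytochrome c oxidase, was at 1829 and 2121 CPM among naive, 1618 and 1325 among rejecting, and 1963 and 1726 among tolerized TAL cells, and at 2055 and 2529, 1115 and 988, and 1362 and 1389 in PT cells (difference for rejecting kidneys 1.03 ± 0.14, adjusted p = 0.0033). Ndufa4 was at 1982 and 2241, 1853 and 1379, and 1777 and 1538 in TAL cells and differed by 0.86 ± 0.13 (adjusted p = 0.0037).

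**Figure D5:**
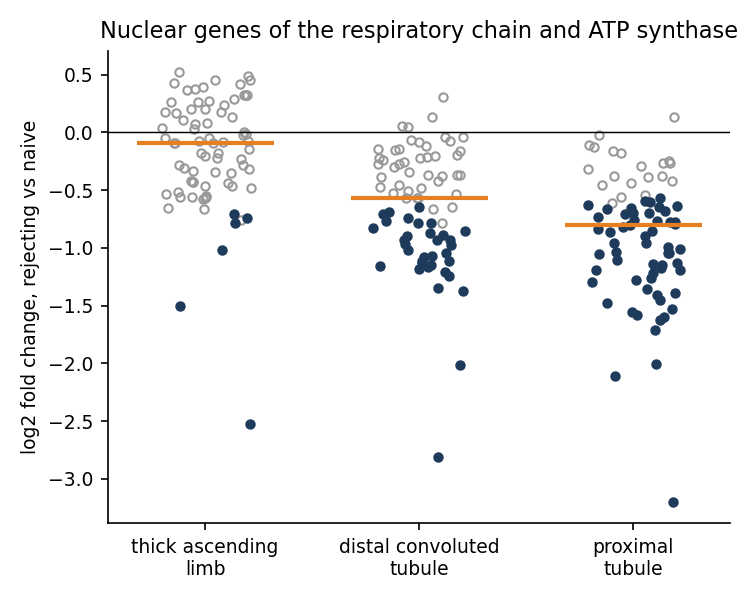
Log2 fold changes, rejecting against naive kidneys, of 77 respiratory chain genes in TAL, DCT, and PT cells. Filled points were called at an adjusted p below 0.05 and orange lines are medians, which lie at -0.09, -0.57, and -0.81.

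Some members moved in TAL cells as well. Ndufa3 of complex I was at 787 and 1003 CPM among naive, 151 and 195 among rejecting, and 366 and 240 among tolerized TAL cells (-2.52 ± 0.24, adjusted p = 0.000103, and -1.67 ± 0.23, adjusted p = 0.00138). Sdha, the catalytic subunit of complex II, was at 505 and 492, 259 and 286, and 320 and 301 (-1.02 ± 0.18, adjusted p = 0.00442, and -0.78 ± 0.18, adjusted p = 0.0218). Of the 13 genes of the mitochondrial genome, 4 were higher and 4 lower in rejecting (30.8% each, against 8.73% and 7.92% of all genes) and 3 higher and 1 lower in tolerized than in naive TAL cells (23.1% and 7.69%, against 5.3% and 4%). In rejecting kidneys the directions were opposite for neighbours such as mt-Nd1 (24149 and 32474 among naive, 9928 and 8943 in rejecting) and mt-Nd2 (9103 and 10532 among naive, 17078 and 21841 in rejecting). Of 23 glycolysis genes, 7 were higher and 2 lower in rejecting and 2 higher and 1 lower in tolerized than in naive TAL cells. Those higher in rejecting kidneys made up 30.4%, against 8.73% of all genes, and the other 3 shares, 8.7%, 8.7%, and 4.35%, lay near the 7.92%, 5.3%, and 4% of all genes. Gpi1, glucose-6-phosphate isomerase, was at 192 and 186 among naive, 452 and 446 among rejecting, and 457 and 285 among tolerized TAL cells (1.10 ± 0.22, adjusted p = 0.00823, and 0.86 ± 0.22, adjusted p = 0.0345). Pgk1, phosphoglycerate kinase, was at 7.73 and 18 among naive and between 293 and 445 in the grafts, and its naive level was as low in DCT and PT cells. It is counted among the 7 and the 2 higher genes, and as for Slc9a3, biology and counting cannot be told apart for it. Pdk4, which holds back pyruvate oxidation, was higher in rejecting kidneys, at 22.3 and 7.52 among naive, 82 and 88.5 among rejecting, and 32.7 and 27 among tolerized TAL cells (tolerized against rejecting -1.47 ± 0.25, adjusted p = 0.0239). Cd36, a fatty acid transporter, was at 55.8 and 69.1 among naive and 2.51 to 12.7 in the grafts (-4.16 ± 0.40, adjusted p = 0.000103, and -2.57 ± 0.29, adjusted p = 0.000342).

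The genes with the widest change between tolerized and rejecting TAL cells included genes known from other cells. Those highest in tolerized TAL cells by fold were Slc22a8, Slc6a19, Gatm, Dao, Fut9, Inmt, Maf, Angptl7, Fbp1, and Slc5a2. Slc22a8 (OAT3), an organic anion transporter of the proximal tubule, was at 24.9 and 28.6 CPM among naive, 5.22 and 2.51 among rejecting, and 37.4 and 45.4 among tolerized TAL cells (3.51 ± 0.36, adjusted p = 0.00404). Fbp1, an enzyme of gluconeogenesis, was at 68.7 and 134, 35.8 and 19.5, and 154 and 169 (2.62 ± 0.34, adjusted p = 0.00701). Of the 12 PT markers, 5 were higher in tolerized than in rejecting TAL cells and 7 were lower in rejecting than in naive TAL cells (41.7% and 58.3%, against 0.8% and 7.92% of all genes, medians 1.85 and -1.70), and the part of PT RNA in these calls was not tested. Those lowest in tolerized TAL cells were Car15, Lyz2, Tmsb4x, Gstp1, Srgn, Klf2, Rpl29, Isca1, Gdf15, and Pdk4. Lyz2, the lysozyme of macrophages and neutrophils, was at 1.72 and 4.51 among naive, 279 and 92.9 among rejecting, and 41.9 and 22 among tolerized TAL cells (tolerized against rejecting -2.53 ± 0.45, adjusted p = 0.0274). Car15, a carbonic anhydrase, was at 48.9 and 49.6, 361 and 91.6, and 10.6 and 13.2 (-4.17 ± 0.54, adjusted p = 0.00701), so rejecting kidney 1 stood far above all others.

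By fitted fold, the genes highest in rejecting against naive TAL cells included Gbp2b, Gbp2, Gbp3, Gbp4, Iigp1, Ifi47, and Tgtp1, of the GBP and IRG families. The others were the unnamed gene F830016B08Rik, the leukocyte gene Cd52, and Npy. For genes without a naive UMI, such as Gbp2, Iigp1, and Npy, a fold is a lower bound only. Their place among the highest is therefore not exact. Npy, the gene of neuropeptide Y, was at 0 and 0 CPM among naive, 62.6 and 104 among rejecting, and 71.5 and 23.5 among tolerized TAL cells, and at 0.886 or less in DCT cells of each kidney. The genes lowest in rejecting against naive TAL cells were Tonsl, Atp4a, Inmt, Akr1c21, Srp54c, Aebp1, Nnt, Cd36, Dnase1, and Spink1. Of these, Tonsl, Atp4a, Srp54c, Aebp1, and Nnt were also among the 10 lowest in tolerized against naive TAL cells. Inmt was among the genes highest in tolerized against rejecting TAL cells, given above with the PT markers. Nnt, the mitochondrial transhydrogenase, was at 120 and 111 among naive and 5.65 to 17.7 in the grafts.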

How the data were processed

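Kidneys were dissociated into single cells, barcoded on the 10× Chromium platform, and sequenced on a NextSeq 550. The authors deposited raw UMI counts per gene and barcode, 1 matrix per kidney, made with CellRanger (version 3.0.1 in the matrices of the grafts, none named in those of the naive kidneys) and the mm10 genome. TAL, DCT, and PT cells were picked from these counts by the rules given above, doublets were kept (4.28% to 9.41% of TAL cells by Scrublet scores), and counts were summed per kidney. Groups were compared with edgeR 4.0.16 (glmQLFit and glmQLFTest, filterByExpr, TMM, all 6 kidneys in 1 fit, FDR 0.05), and cell types with an interaction term and the kidney as a block. The 6 genes of the rule were not tested, whereas the mitochondrial genes, limited only as a sum, were. The tests were tried on simulated data. The alternatives were DESeq2 1.42.0 and its size factors, no filter on low counts, a replicate block, other limits on cells, thinning, and leaving out each kidney. Named genes were anchors of the cell type and up to 4 called members per list and direction. Per comparison, the 10 called genes of largest fitted change whose groups did not overlap at a mean of 20 CPM were added. Some genes under this rule are not reported here. The members and gene lists were chosen with earlier results of these data known. Python 3.11.15, scanpy 1.11.5, and R 4.3.3 were used.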

Additional observations from a re-analysis of the deposited data

Results flagged for a closer look

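For some genes the change in TAL cells differed from that in DCT or PT cells of the same kidneys, by the interaction of cell type and group in edgeR. The values are differences of log2 fold changes (TAL minus the other type), and no explanation was tested.

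Against DCT cells, the change from naive to rejecting kidneys was more negative in TAL cells for Pth1r (-1.35 ± 0.17), Ptger3 (-2.15 ± 0.34), Gpx6 (-1.67 ± 0.21), Cldn8 (-1.27 ± 0.23), and Klf6 (-1.64 ± 0.24), and more positive for Cryab (1.84 ± 0.27), Ckb (1.01 ± 0.15), and Ppp1r1b (2.58 ± 0.45). Klf6, a factor of early injury, was at 262 and 215 CPM in naive and 333 and 388 in rejecting TAL cells, and at 60.8 and 58.6 in naive and 321 and 287 in rejecting DCT cells. Ppp1r1b was lower in rejecting kidneys in both cell types. It was at 215 and 129 CPM in naive and 89.4 and 110 in rejecting TAL cells. In DCT cells Ppp1r1b was at 22.8 and 20.8 in naive and only 1.25 and 3.17 in rejecting kidneys. In tolerized against naive kidneys the differences were -1.18 for Pth1r, -2.20 for Ptger3, -1.68 for Gpx6, -1.76 for Klf6, and 2.96 for Cryab.

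Against PT cells, the change from naive to rejecting kidneys was more negative in TAL cells for Pth1r (-1.27 ± 0.22) and more positive for B2m (1.41 ± 0.17), H2-D1 (0.94 ± 0.16), Cd74 (1.62 ± 0.42), Cox7c (1.03 ± 0.14), Ndufa4 (0.86 ± 0.13), Cldn10 (0.91 ± 0.15), and Fxyd2 (1.42 ± 0.18). Cd74 started from 3.43 and 15 CPM in naive TAL cells and from 50.6 and 364 in naive PT cells. In tolerized against naive kidneys the differences were -1.41 for Pth1r, 1.12 for B2m, and 1.93 for Cd74. Of the 77 respiratory chain genes, 68 were more positive in TAL than in PT cells for rejecting and 30 for tolerized against naive kidneys.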

How the results depend on the processing

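The replicate numbers were not shown to pair the kidneys, nor can the labels settle it: deviations of same-numbered kidneys correlated at -0.0529, 0.0973, and 0.0861 over genes for the pairs of groups. With the replicate number as a block, 165 genes were called between tolerized and rejecting, 1549 between rejecting and naive, and 898 between tolerized and naive TAL cells.

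DESeq2 called 104, 1100, and 636 genes in these comparisons. Called genes between tolerized and rejecting TAL cells came to 505 without a filter on low counts, 0 at 20% mitochondrial UMIs at most, 47 without called doublets, 50 on thinned cells, 155 without leukocyte UMIs, 32 with at least 4 Slc12a1 UMIs, 60 with these 2 groups alone, and 8 to 199 without 1 kidney. For rejecting against naive they were 123 at 20% mitochondrial UMIs, 504 thinned, 876 without leukocyte UMIs, and 497 to 1318 without 1 kidney. For tolerized against naive they were 1433 without the filter, 48 at 20% mitochondrial UMIs, 276 thinned, and 207 to 1100 without 1 kidney.

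Differences from DCT cells numbered 66, 162, and 80 (tolerized against rejecting, rejecting against naive, tolerized against naive). They became 154, 362, and 166 without the filter, 6, 24, and 16 thinned, 25 and 5 at 20% mitochondrial UMIs for the comparisons with naive kidneys, and 8 to 174, 15 to 365, and 15 to 162 without 1 kidney. Differences from PT cells numbered 24, 1098, and 349. They became 350, 1669, and 864 without the filter, 552 and 205 thinned and 11 and 5 at 20% mitochondrial UMIs for the comparisons with naive kidneys, and 8 to 247, 232 to 1307, and 3 to 470 without 1 kidney.

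The share of TAL cells among barcodes ranged from 0.775 to 2.85 points (tolerized minus rejecting), -0.751 to -0.567 (rejecting minus naive), and 0.116 to 2.19 (tolerized minus naive) without 1 kidney, and the difference between rejecting and naive turned to 0.268 at 20% mitochondrial UMIs and to 2.83 without leukocyte UMIs, the latter chosen after seeing the data. Among tubular cells the ranges were -3.69 to 6.21, 6.59 to 10.8, and 4.99 to 14.9 points. Tolerized minus rejecting turned to -0.836 without rejecting kidney 1 and to -0.566 on cells thinned before the rule was applied.

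Of 1889 repeats of the 112 gene changes, 1571 kept direction and call, 313 lost the call, and 5 reversed. At 20% mitochondrial UMIs these were Irx3 (0.21 in rejecting and 0.21 in tolerized against naive kidneys), Ppp1r1b (0.15, rejecting), and Cat (0.36, tolerized), and without leukocyte UMIs Vim (-1.30, rejecting). Of 216 repeats of differences between cell types, 167 kept the call and 49 lost it. The causes were not tested, but 20% mitochondrial UMIs leaves 33 and 9 naive TAL cells. Depth limits what was counted in naive kidneys most, where 3 UMIs correspond to 2.58 and 4.51 CPM.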

Other observations

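Ribosomal protein genes moved differently in TAL and PT cells. Of 80 tested in TAL cells, 26 were higher and 7 lower in rejecting than in naive kidneys (32.5% and 8.75%, against 8.73% and 7.92% of all genes, median 0.42), whereas in PT cells 7 were higher and 30 lower of 81 (median -0.41), where 17.5% and 15.3% of all genes were. The change was more positive in TAL cells for 77 of 81 genes against PT cells in rejecting and 56 of 81 in tolerized kidneys, and for 2 against DCT cells in rejecting kidneys, against 6.91%, 2.09%, and 0.781% of all genes. On the cells with at most 20% mitochondrial UMIs none of the 81 passed the test against PT cells in edgeR, with 76 and 51 more positive at an unadjusted p under 0.05 and median differences of 0.99 and 0.76 in rejecting and tolerized kidneys. Rps28 was among the 7 that were lower. It was at 799 and 902 CPM among naive, 138 and 243 among rejecting, and 600 and 403 among tolerized TAL cells (rejecting against naive -2.31 ± 0.27, adjusted p = 0.00037; tolerized against rejecting 1.44 ± 0.27, adjusted p = 0.0312).

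Some genes differed between naive kidneys and grafts by like amounts in all 3 cell types. Pgk1 was at 6.92 and 22.1 CPM in naive DCT cells and 6 and 17.9 in naive PT cells, against 320 to 440 and 271 to 310 in the grafts. Nnt was at 127 and 128 in naive DCT cells and 38.3 and 36.4 in naive PT cells, against 5.08 to 15.7 and 3.05 to 4.68 in the grafts.

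Nme2, a nucleoside diphosphate kinase, was at 217 CPM in TAL cells of rejecting kidney 1 and between 5.03 and 31.6 in the other kidneys, and it was as far apart in DCT and PT cells of that kidney (252 and 487). It passed no test, and it was singled out after its values were seen.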
